A study of Saccharomyces cerevisiae with 6 samples.

Results

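Nitrogen enters a yeast cell as ammonium through a small family of permeases, and the genes of these permeases are switched on by GATA transcription factors when better nitrogen sources run low, a control known as nitrogen catabolite repression. The 10 genes described here are the ammonium permeases MEP1, MEP2 and MEP3, the ATO family of acetate and putative ammonium transporters (ADY2, also called ATO1, ATO2 and ATO3), the GATA activators GLN3 and GAT1, and the GATA repressors DAL80 and GZF3. They were chosen by name from the families they belong to, with earlier results of these data known. All 10 had a single probe set each among the probe sets for 5449 S. cerevisiae genes on the array. Gln3 and Gat1 bind GATA sequences in the promoters of nitrogen genes and activate them, whereas Dal80 and Gzf3 bind similar sequences and repress. Gln3 is held in the cytoplasm by Ure2 while good nitrogen is at hand. Mep2 has the highest affinity for ammonium of the permeases and also takes part in the switch to pseudohyphal growth.

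Transcripts were measured in yeast that overexpressed Med3-GST, a fusion of the Mediator tail subunit Med3, and in yeast that overexpressed GST alone. Both groups were grown in galactose medium without uracil, with the protein made from a plasmid under the galactose-inducible GAL1/10 promoter for 48 h. There were 3 biological replicates (A, B and C) in each group and 1 Affymetrix array per replicate. The control therefore carries the tag, the promoter and the plasmid as well. The output of the promoter was not matched, as the paper reported a much lower steady-state transcript level for the Med3 fusion than for GST. The study asked how the excess of Med3 and the protein aggregates that came with it change transcript levels. The parent strain of the study is BY4741, a MATa strain deleted for his3, leu2, met15 (MET17) and ura3, whose number the titles of the GST arrays carry. The strains listed with either plasmid derive from it and also carry a tagged Mediator subunit, and which strain was on the arrays is not stated. The arrays compare overexpression alone, and cells without Med3 were not on them. In a culture, fewer cells that express a gene and less transcript in each cell cannot be told apart.

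The signal of PGD1, the gene of Med3, was 13.0-fold higher in cells with Med3-GST as deposited. With background subtracted and the arrays centred, both described below, it was 18.1-fold higher. Arrays of 1 group correlated at 0.999 or more over all probe sets and arrays of different groups at 0.973 or less. The median log2 signal was 9.87 to 9.99 on Med3-GST arrays and 9.99 to 10.08 on GST arrays. The median log2 difference over all probe sets, Med3-GST minus GST, was -0.085 as deposited and 0.01 after centring, in which the median of each array was subtracted. Differences below are as deposited unless they are called centred, and centring adds about 0.1 to each of them. The array also holds probe sets for the fission yeast S. pombe, absent from these cultures, with a median signal of 64.9 to 66.9 units. Their 95th percentile, a log2 signal of 7.49, is used below as the limit of low signal. Of the 6 markers of a cells, all lay far above this limit with log2 means of 10.08 to 12.55, and of the 4 markers of alpha cells the pheromone genes MF(ALPHA)1 and MF(ALPHA)2 lay under it (6.61 to 6.90), while STE3 and SAG1 did not (7.95 to 9.13). MET17, deleted in BY4741, was at background (6.37 in each group), whereas HIS3 and LEU2, also listed as deleted there, had log2 means of 10.48 to 10.92. Whether their probes lie in the deleted parts was not tested. URA3, also deleted there but the marker of the plasmid, had log2 means of 13.59 with Med3-GST and 13.87 with GST. Its log2 difference was -0.27 as deposited and -0.18 after centring.

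With Med3-GST, 6 of the 10 genes were higher, 1 was lower and 3 did not pass the test (limma, adjusted over 5498 probe sets by Benjamini-Hochberg, threshold 0.05). Over all probe sets 27.1% were higher and 47.8% lower in the same test. After centring, 8 of the 10 were higher and 1 lower, against 43.6% and 41.7% of all probe sets. The genes that rose in both were MEP2, ATO3, MEP1, GZF3, GLN3 and GAT1, and the one that fell was ADY2. In the same 6 genes every Med3-GST array lay above every GST array, which held for 26.6% of all probe sets, and in ADY2 every Med3-GST array lay below, which held for 48.4%. MEP3 and DAL80 were called higher after centring and did not pass as deposited, and ATO2 passed in neither. The median log2 difference was 0.25 for the 10 genes, against -0.08 for all probe sets. Their spread was wide, from an increase near the top of all genes to a decrease of moderate size.

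**Figure D1:**
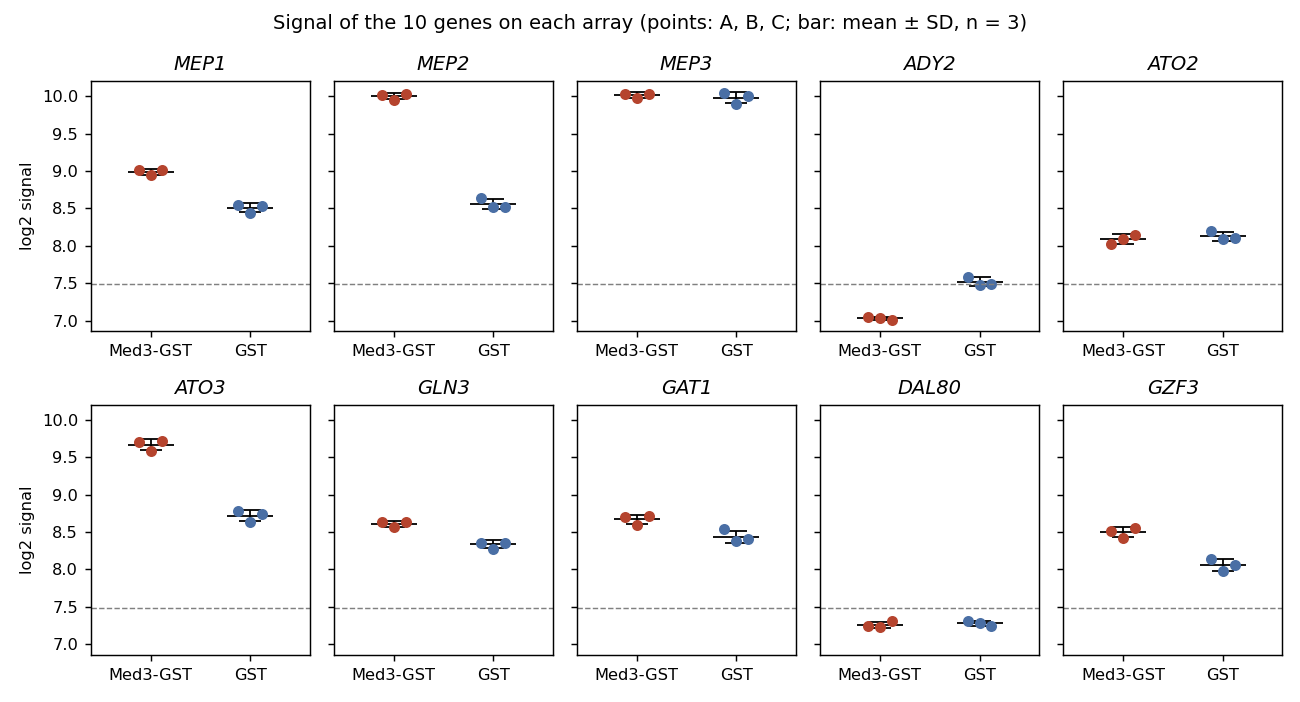
Log2 signal (y axis) of each of the 10 genes on the 3 Med3-GST arrays (left in each panel) and the 3 GST arrays (right), with points for arrays, bars for mean ± SD (n = 3) and a dashed line at the limit of low signal (7.49). The groups are separate in 7 panels and overlap for MEP3, ATO2 and DAL80, and DAL80 lies under the dashed line on all 6 arrays.

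The ammonium permease genes did not move alike. MEP2, the high-affinity permease gene, showed log2 signals of 10.01, 9.95 and 10.03 on the Med3-GST arrays A, B and C and of 8.64, 8.52 and 8.52 on the GST arrays A, B and C. All 3 Med3-GST arrays were thus far above the GST arrays, and replicates of either group lay close together. The SD was 0.04 with Med3-GST and 0.07 with GST on the log2 scale (n = 3 each), and the log2 difference of 1.44 (SE 0.05) ranked 5 from the top among all 5498 probe sets. It was 1.53 after centring (limma adjusted p = 3.99e-14). On the linear scale the geometric mean signal was 1022 units with Med3-GST and 377 units with GST, a 2.71-fold increase. With the S. pombe median of each array subtracted as background and the arrays then centred, it was 3.30-fold.

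MEP1, a permease gene of lower affinity, had log2 signals of 9.01, 8.94 and 9.01 with Med3-GST, against 8.55, 8.44 and 8.53 with GST. Again the groups did not overlap. Its log2 difference was 0.48 (SE 0.05), a 1.39-fold increase, and it was 0.57 after centring (limma adjusted p = 1.2e-10). MEP3, the gene of the low-affinity permease most like Mep1, gave linear signals of 1045, 1000 and 1049 units with Med3-GST and of 1054, 958 and 1024 units with GST. Here the arrays of both groups lay within the same range. Its log2 difference of 0.03 (95% confidence interval -0.07 to 0.13, limma adjusted p = 0.618) did not pass the test as deposited. After centring it was 0.12 (0.07 to 0.17, adjusted p = 0.000307), so that the call for MEP3 turns on the scaling of the arrays, while its size stayed at 0.13 or less in every scaling tried. The Mep proteins resemble each other, and how far the probe sets of MEP1 and MEP3 cross-hybridise was not tested.

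Offsets between arrays cancel when 2 genes are read on the same array, so that ratios within an array compare the genes directly. The level of such a ratio depends on the probes and only its change between the groups is read. The log2 ratio of MEP2 over MEP1 was 1.00, 1.01 and 1.02 on the Med3-GST arrays and 0.09, 0.07 and -0.01 on the GST arrays, a change of 0.96. For MEP2 over MEP3 the change was 1.41 (-0.01 ± 0.01 with Med3-GST and -1.42 ± 0.05 with GST, SD, n = 3 each). For MEP1 over MEP3 it was 0.45, with -1.02 ± 0.00 in Med3-GST arrays and -1.47 ± 0.02 in GST arrays. None of these ratios overlapped between the groups. An exact permutation test of 3 arrays against 3 (two-sided) gave p = 0.1 for each, the smallest p this design allows. After adjustment over the 8 ratios compared it was 0.114. Most single probe sets also separated the groups as deposited (26.6% above and 48.4% below). How often ratios of other gene pairs do so was not tested.

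**Figure D2:**
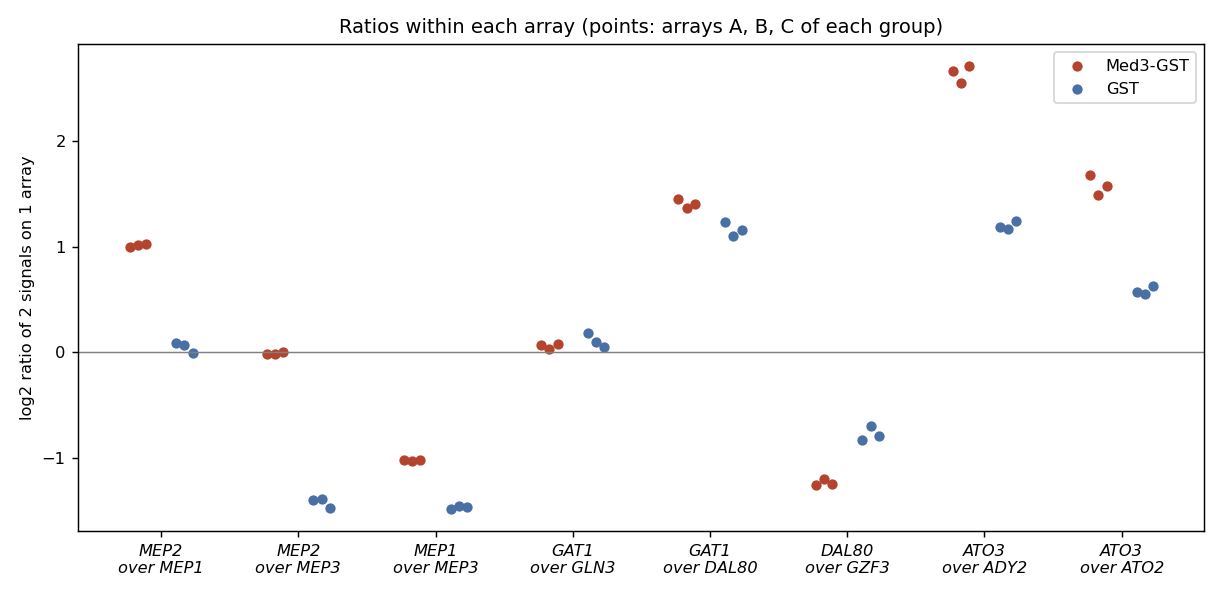
Log2 ratio of the signals of 2 genes on the same array (y axis) for 8 pairs of genes (x axis), with 3 Med3-GST arrays (red, left) and 3 GST arrays (blue, right) per pair. The groups are apart in 7 pairs, among them MEP2 over MEP3 with a change of 1.41, and overlap for GAT1 over GLN3. Pairs with ADY2 or DAL80 are set against a dim probe set, and no conclusion is drawn from those with DAL80.

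The ATO family went in different directions. ATO3, whose product is thought to export ammonia, rose. Its log2 signals were 9.70, 9.58 and 9.72 with Med3-GST, against 8.78, 8.64 and 8.74 with GST, so that the lowest Med3-GST array was well above the highest GST array. The log2 difference was 0.95 (SE 0.05), a 1.93-fold increase that ranked 46 from the top, and 1.05 after centring (limma adjusted p = 5.09e-13). ADY2, which encodes an acetate transporter of the plasma membrane, fell, with 7.05, 7.03 and 7.01 in cells with Med3-GST and 7.58, 7.47 and 7.49 in cells with GST. Its Med3-GST arrays lay under the limit of low signal and its GST arrays at it. The log2 difference was -0.49 (SE 0.05) as deposited and -0.39 after centring (limma adjusted p = 1.25e-07). With background subtracted and the arrays centred it was -0.75, so that the size of the decrease of this dim probe set depends on the treatment of the background. ATO2, the closest relative of ADY2 in the family, had 8.02, 8.09 and 8.15 with Med3-GST and 8.20, 8.09 and 8.10 with GST. These ranges overlapped. Its log2 difference was -0.05 as deposited (95% confidence interval -0.15 to 0.05, limma adjusted p = 0.382) and 0.05 after centring (-0.03 to 0.13, adjusted p = 0.232), so that its sign follows the scaling. Within arrays, the log2 ratio of ATO3 over ADY2 was 2.64 ± 0.08 with Med3-GST and 1.20 ± 0.04 with GST. Its change of 1.44 is set against the dim ADY2 probe set and was 1.93 with background subtracted. The ratio of ATO3 over ATO2 changed by 1.00 (1.58 ± 0.10 with Med3-GST and 0.58 ± 0.04 with GST, SD, n = 3 each). Both ratios were higher on every Med3-GST array, with the smallest possible p = 0.1 in the exact permutation test. How often ratios of other gene pairs separate in this way was not tested.

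The genes of the GATA factors moved less than those of the transporters MEP2 and ATO3. GLN3 gave log2 signals of 8.63, 8.57 and 8.63 with Med3-GST and 8.36, 8.28 and 8.36 with GST, and GAT1 gave 8.70, 8.59 and 8.71 with Med3-GST and 8.54, 8.38 and 8.41 with GST. Both activator genes were higher on all Med3-GST arrays, although for GAT1 the gap between the nearest arrays of the groups was small. The log2 difference was 0.27 for GLN3 and 0.22 for GAT1 (SE 0.05 each), and after centring 0.37 (limma adjusted p = 1.06e-08) and 0.32 (8.25e-08). The ratio of GAT1 over GLN3 within arrays was 0.06 ± 0.03 with Med3-GST and 0.11 ± 0.07 with GST (SD, n = 3 each), and its change of -0.05 did not exceed the spread (exact permutation p = 0.3).

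GZF3, a repressor gene, had a larger log2 difference than the activator genes, a contrast that was not tested. It had log2 signals of 8.51, 8.42 and 8.56 with Med3-GST, against 8.14, 7.98 and 8.06 with GST, and the groups were well apart. The log2 difference was 0.44 (SE 0.05), a 1.36-fold increase, and 0.54 after centring (limma adjusted p = 3.24e-10). DAL80, the other repressor gene and itself a target of GATA activators, showed 7.25, 7.23 and 7.31 with Med3-GST and 7.31, 7.28 and 7.25 with GST. All 6 values lay under the limit of low signal and the groups overlapped. The log2 difference was -0.02 as deposited (95% confidence interval -0.12 to 0.08, limma adjusted p = 0.748) and 0.08 after centring (0.02 to 0.14, adjusted p = 0.0188), while quantile normalization gave an adjusted p = 0.887. The call for DAL80 thus turned on the scaling. Ratios of GZF3 or GAT1 to DAL80 within arrays are set against a probe set that was not above this limit, and they are therefore not read.

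**Figure D3:**
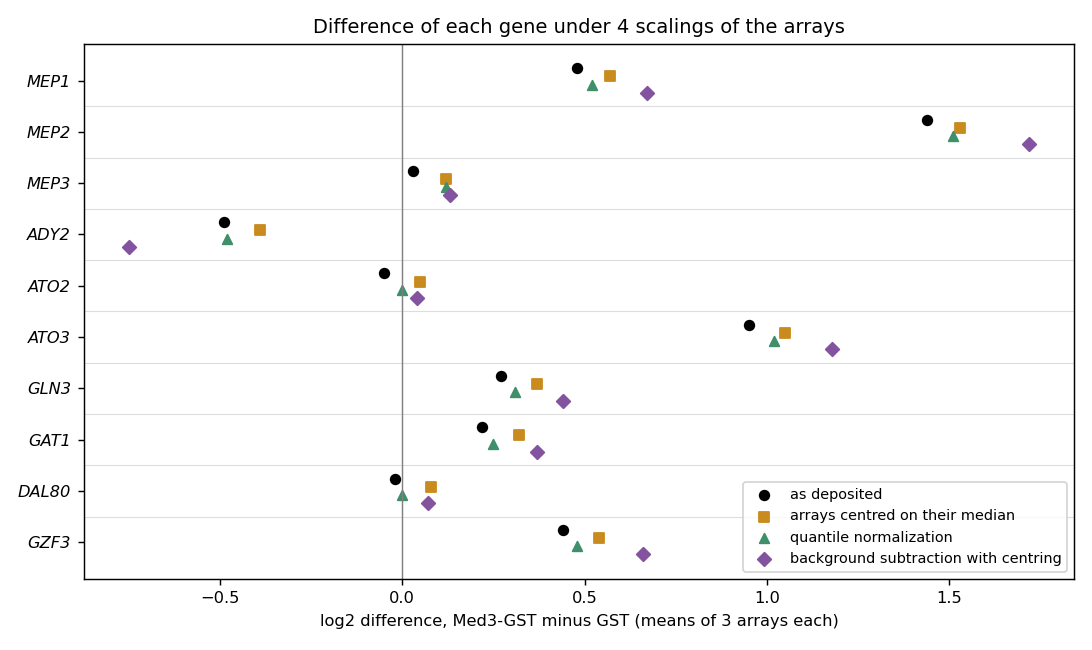
Log2 difference between the means of 3 Med3-GST and 3 GST arrays (x axis) for each gene (y axis) under 4 scalings of the arrays, marked by shape. MEP2 stays between 1.44 and 1.72 and ATO3 between 0.95 and 1.18, whereas ATO2 and DAL80 sit on both sides of 0.

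Set among all probe sets, the increases of MEP1 (rank 389 from the top) and GZF3 (446) lay below those of MEP2 (5) and ATO3 (46), and those of GLN3 (813) and GAT1 (962) were lower still. ADY2 ranked 532 from the bottom. The probe sets whose profile over the 6 arrays lay nearest to that of MEP2 were those of TIP1, a cell wall mannoprotein gene, and HEM13, a gene of heme synthesis, with Euclidean distances of 0.119 and 0.144 on the log2 scale after each probe set was centred on its own mean. NOC4, RPC19 and SAM1 followed with 0.234 to 0.238. With 6 arrays in 2 groups, such likeness mostly reflects a log2 difference of similar size (1.25 to 1.52 for these 5 genes). Of 17 measured direct neighbours of the 10 genes on their chromosomes, in the gene order of assembly R64, 6 were higher, 8 were lower and 3 did not pass the test, beside 27.1% higher and 47.8% lower among all probe sets.

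**Figure D4:**
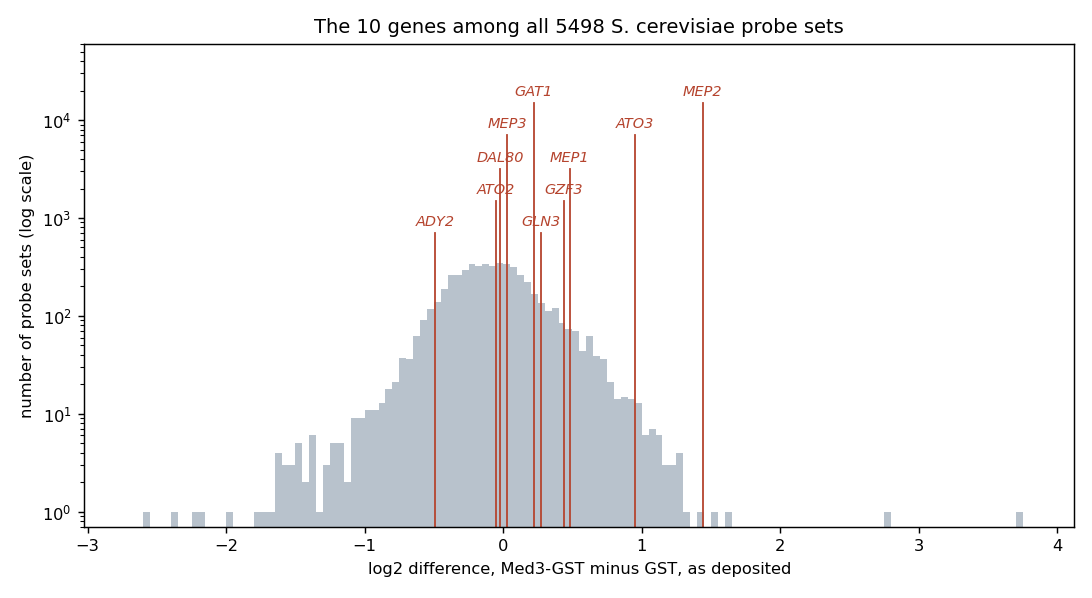
Number of probe sets (y axis, log scale) by log2 difference between Med3-GST and GST arrays as deposited (x axis), for all 5498 S. cerevisiae probe sets, with red lines at the 10 genes. MEP2 (1.44) lies near the right end and ATO3 (0.95) in the right flank, while ADY2 (-0.49) is the 1 gene clearly left of the centre.

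Other genes of nitrogen use gave a divided picture, and whether the GATA factors control each of them was not tested. Of 20 genes for the uptake and breakdown of poorer nitrogen sources, 19 were measured, and 9 were higher, 7 lower and 3 did not pass the test (limma as deposited; 11, 5 and 3 after centring). This was 47.4% higher and 36.8% lower, beside the 27.1% and 47.8% of all probe sets. The median log2 difference was 0.09, against -0.08 for all probe sets. Genes for permeases and genes for enzymes differed in their counts, a split made after the values were seen and therefore not tested. Of 9 permease genes, 6 were higher and 1 was lower (7 and 0 after centring). As deposited this was 66.7% and 11.1%, beside the 27.1% and 47.8% of all probe sets. After centring, 43.6% of all probe sets were higher and 41.7% lower. GAP1, the general amino acid permease, had a log2 signal of 10.43 ± 0.05 with Med3-GST and 9.37 ± 0.10 with GST (SD, n = 3 each). DUR3, a transporter of urea and polyamines, rose by 0.75 on the log2 scale and the arginine permease gene CAN1 by 0.54. The peptide transporter gene PTR2 rose by 0.48. The amino acid permease gene AGP1, with -0.11, was called lower as deposited but not after centring. The allantoate permease gene DAL5 and the allantoin permease gene DAL4, with 0.02 and -0.03, did not pass as deposited, and of these DAL5 was called higher after centring (0.12).

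Of 10 genes for breakdown enzymes, 3 were higher and 6 lower (4 and 5 after centring), which as 30% and 60% lies near the 27.1% and 47.8% of all probe sets. CAR1, arginase, rose to 11.35 ± 0.04 with Med3-GST, against 10.45 ± 0.09 with GST, whereas CAR2, the next enzyme of arginine breakdown, fell by 0.42 on the log2 scale. UGA2, which completes the breakdown of GABA, was at 11.09 ± 0.08 with Med3-GST and 11.89 ± 0.08 with GST (SD, n = 3 each). The proline oxidase gene PUT1 fell by 0.65. DAL2 and DAL3, enzymes of allantoin breakdown, rose by 0.33 and 0.29 on the log2 scale. DAL7, a malate synthase gene that is induced with this pathway, was called lower as deposited (-0.15) but not after centring. DAL1, the first enzyme of the pathway, lay under the limit of low signal (7.26 with Med3-GST and 7.16 with GST) and, with 0.09, did not pass as deposited and was called higher after centring (0.19).

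**Figure D5:**
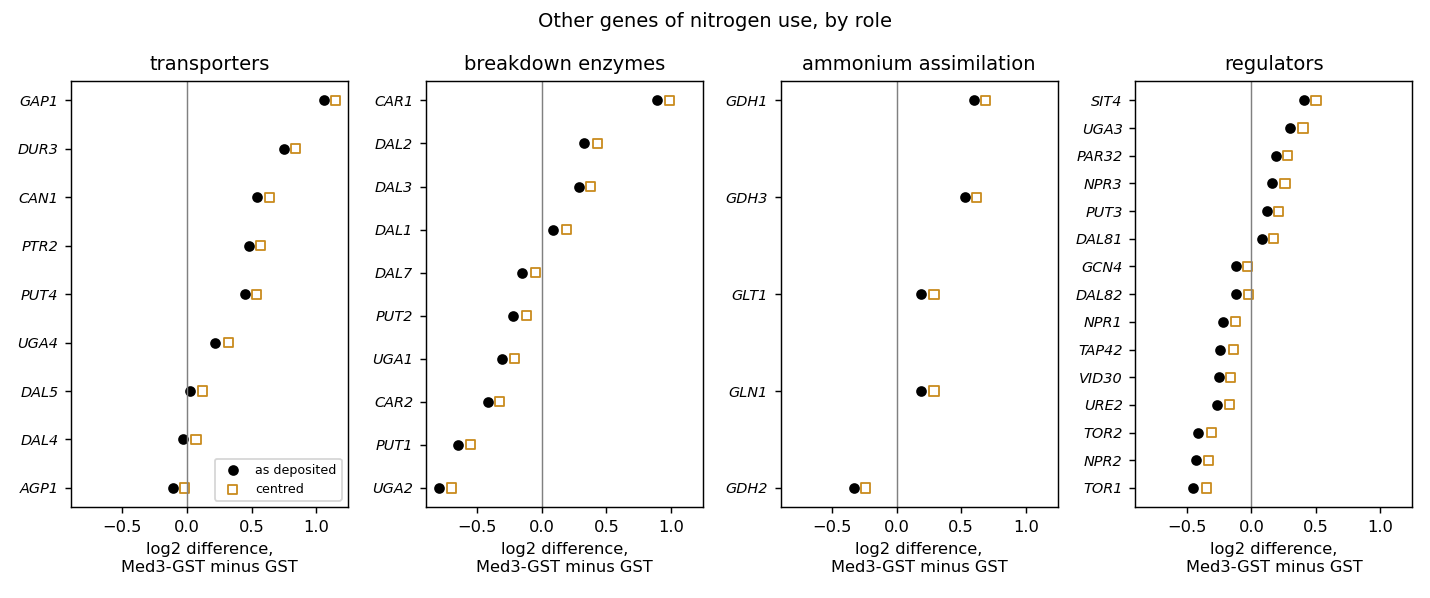
Log2 difference between Med3-GST and GST (x axis, means of 3 arrays each) for genes of nitrogen use (y axis) in 4 panels by role, as deposited (filled) and after centring (open squares). Permease genes reach from GAP1 (1.06) to AGP1 (-0.11), breakdown enzymes from CAR1 (0.89) to UGA2 (-0.80).

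Ammonium that has entered the cell is fixed into glutamate and glutamine. Of 5 genes for this step or for the release of ammonium from glutamate, 4 were higher and 1 lower, both as deposited and after centring. Of all probe sets, 27.1% were higher as deposited and 43.6% after centring. GDH1, the main NADP-dependent glutamate dehydrogenase, had 12.70 ± 0.05 with Med3-GST and 12.10 ± 0.07 with GST, and its isoenzyme gene GDH3 rose by 0.53 on the log2 scale. GLN1, glutamine synthetase, and GLT1, glutamate synthase, each rose by 0.19. GDH2, which releases ammonium from glutamate, was the member that fell, with 11.34 ± 0.07 with Med3-GST and 11.68 ± 0.04 with GST (SD, n = 3 each).

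Of 15 genes for regulators of nitrogen use, 5 were higher, 9 lower and 1 did not pass (6, 7 and 2 after centring). These 33.3% higher and 60% lower lie near the 27.1% and 47.8% of all probe sets. Their median log2 difference was -0.12 as deposited, against -0.08 for all probe sets. URE2, the cytoplasmic anchor of Gln3, fell by 0.27 on the log2 scale. The kinase genes TOR1 and TOR2 fell by 0.45 and 0.41 and NPR2, part of a complex that restrains TORC1, by 0.43. SIT4, a phosphatase that acts on Gln3, rose by 0.41. NPR1, the kinase that keeps Mep2 active, fell by 0.22, and PAR32, whose product inhibits Mep1 and Mep3, rose by 0.19. The activator gene DAL81, with 0.08, did not pass as deposited and was called higher after centring.

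Lists tied to single members were read in the same way. Among 5 genes of acetate and lactate use, set beside ADY2, 4 were lower (80%) and none higher, beside the 47.8% lower and 27.1% higher of all probe sets. JEN1, a lactate and pyruvate permease, fell by 0.82 on the log2 scale, the activator gene CAT8 by 0.70 and the acetyl-CoA synthetase gene ACS1 by 0.31, while ADR1, with 0.09, did not pass. SIP4 was called lower as well, but at a dim signal (7.24 with Med3-GST and 7.60 with GST), with a log2 difference of -0.36 as deposited, -0.27 after centring and -0.49 with background subtracted. After centring, 4 were still lower and ADR1 was called higher. Among 8 genes of pseudohyphal growth, set beside MEP2, 2 were higher and 5 lower (3 and 4 after centring). These are 25% and 62.5%, near the 27.1% and 47.8% of all probe sets. TEC1, an activator of filamentation genes, rose by 0.69, while the protein kinase gene TPK2 fell by 0.96, the G protein gene GPA2 by 0.71 and RAS2 by 0.63. FLO11, the flocculin of filamentous growth, had a log2 difference of -0.11 and was called lower as deposited but not after centring. SOK2, with -0.03, did not pass as deposited and was called higher after centring (0.07).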

How the data were processed

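RNA of 3 cultures with Med3-GST and 3 with GST alone was hybridised to Affymetrix Yeast Genome 2.0 Arrays. The values that the authors deposited for each probe set were read as log10 signals because 10 raised to the value had at most 2 decimals in 100% of cells (10.2% for base 2). The authors normalized within each experiment. The sources used here give neither the kind of normalization nor the background correction or probe summary. The protein named in the labels set the groups.

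Log10 values were turned into log2. Probe sets with 1 S. cerevisiae gene (5498 of 10928, names of assembly R64) were tested two-sided with lmFit and eBayes of limma 3.58.1 under R 4.3.3, with Benjamini-Hochberg adjustment at 0.05. As deposited, offsets between arrays gave every probe set the same SE of 0.05, so that adjusted p-values of called genes are given after centring (median SE 0.0243). The brightest probe set stood for a gene. Confidence intervals are those of limma. The procedure was checked on simulated arrays whose noise was independent between probe sets. Offsets between arrays were not simulated, so that the check does not cover the calls as deposited. The number of arrays limits the precision. As deposited, p-values and intervals rest on a spread pooled over all probe sets and treated as known, so that these intervals may be too narrow. After centring, they rest on the spread of each gene between these cultures, moderated over all probe sets. The members and lists were chosen with earlier results of these data known. Named were all 10 members, in each other list up to 4 called genes with the largest differences and those that did not pass, and the 5 probe sets nearest to MEP2. PGD1 was named as the overexpressed gene. CAN1, PTR2, AGP1, DAL2, DAL3, CAR2, PUT1, DAL7, GLT1, URE2, NPR1, PAR32 and FLO11 were added after their values were seen. Alternatives covered scaling, background, low signal, the estimate of the spread, pairing and leaving out arrays. Left out were S. pombe probe sets, used for background only, and probe sets with no listed gene.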

Additional observations from a re-analysis of the deposited data

How the results depend on the processing

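All 10 members but MEP3, ATO2, DAL80 and ADY2 kept their direction and call in all 23 alternatives, and ADY2 in the 22 that included it. The filter on low signal removed ADY2 and DAL80, which left 0 lower members, and array weights called 2 lower members, ATO2 (-0.053, adjusted p = 0.0208 in limma) besides ADY2. The default estimate of these weights did not converge, and a gene-by-gene estimate was used, chosen after seeing the data. The higher probe sets numbered 1488 as deposited, 2395 after centring, 2406 after background subtraction with centring and 1305 to 2392 when 1 array was left out, as deposited or after centring. The log2 difference of MEP3 was -0.011 without GST replicate B, and its range without 1 array was -0.011 to 0.134. That of ATO2 was 0.047 after centring, 0.000 after quantile normalization, 0.040 after background subtraction and -0.079 to 0.093 without 1 array, where its highest value (without Med3-GST replicate A, after centring) passed the test (adjusted p = 0.0114). That of DAL80 was 0.077 after centring, 0.071 after background subtraction, 0.010 with array weights and -0.042 to 0.101 without 1 array. Its call after centring was lost without GST replicate A, GST replicate C or Med3-GST replicate B (limma adjusted p = 0.0593, 0.0807 and 0.0712). The cause was not tested. Subtracting background raised the ratio changes to 1.055 (MEP2 over MEP1), 1.591 (MEP2 over MEP3), 0.536 (MEP1 over MEP3), 1.928 (ATO3 over ADY2) and 1.137 (ATO3 over ATO2). The change of DAL80 over GZF3 was then -0.592, which is not read because DAL80 lay under the limit of low signal.

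Arrays with the same letter deviated together only weakly (correlations of 0.029 to 0.062), each more than with other letters. The letters were not taken as pairs. With the letter as a replicate block, 1711 probe sets were higher and 2869 lower as deposited, and 2412 and 2294 after centring (chosen after seeing the data, as was leaving out arrays after centring), where ATO2 had 0.047 and DAL80 0.077. No member has several probe sets, so that the mean over probe sets was not run. Dim signal limits what can be said of ADY2, DAL80, DAL1, DAL4 and SIP4.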
